A study of Mus musculus with 8 samples.

Results

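The circadian clock genes examined here were Arntl, Clock, Per1, Per2, Per3, Cry1, Cry2, Dbp, Nr1d1 and Bhlhe41, a set of 10 activators, repressors and outputs of the clock chosen by name. Each was found by its symbol on 1 row of the deposited tables, which held 43239 distinct gene names, and all 10 were among the 11878 genes that averaged 1 FPKM or more and were tested (FPKM, fragments per kilobase of transcript scaled to the mapped fragments of the library). Dbp shared its row with Car11 in the files, so its values are for both names. RNA was sequenced from quadriceps, a thigh muscle, of 8 female mice aged 6 months, of which 4 were labelled wild type (WT) and 4 Mss51-/- (knockout, KO). Mss51 encodes a protein of skeletal muscle that localises to mitochondria. All mice had free food and water and a cycle of 12 h light and 12 h dark. The labels give neither the strain, nor how the Mss51 allele was made, nor the hour at which each muscle was taken.

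The clock is a feedback loop of transcription that runs in nearly every cell, muscle fibres included. ARNTL (also called BMAL1) and CLOCK bind as a pair to E-box sequences and switch on the Per, Cry, Dbp, Nr1d1 and Bhlhe41 genes, whose products then hold the pair back or carry the rhythm to other genes. NR1D1 (REV-ERB alpha) represses Arntl through ROR elements, and Arntl RNA therefore peaks at another time of day than Dbp and the Per genes, so that the balance between Arntl and these genes in a tissue changes with the hour. Nr1d1 RNA rises earlier in the cycle than that of Dbp and the Per genes.

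The promoter sequences below are shown because they carry the letters through which these genes are known to be coupled, and because the values of these genes are set against each other further on. They are RefSeq promoter windows of build GRCm38.p6, written 5′ to 3′ on the strand of the gene, with the searched letters in capitals. In Per3 (chr4:151044666-151044915, minus strand) the capitals mark 2 D-boxes, the binding letters of DBP and its relatives. In Cry1 (chr10:85185065-85185304, minus strand) they mark an E-box and an E-box variant, in Nr1d1 (chr11:98775378-98775627, minus strand) an E-box variant, and in Arntl (chr7:113207529-113207558, plus strand, 30 bases around the match) the core of a ROR element.
Per3: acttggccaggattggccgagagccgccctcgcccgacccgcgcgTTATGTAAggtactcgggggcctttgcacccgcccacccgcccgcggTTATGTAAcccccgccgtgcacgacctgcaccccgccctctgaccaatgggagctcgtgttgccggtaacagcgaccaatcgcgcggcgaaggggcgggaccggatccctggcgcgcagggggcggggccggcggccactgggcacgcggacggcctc
Cry1: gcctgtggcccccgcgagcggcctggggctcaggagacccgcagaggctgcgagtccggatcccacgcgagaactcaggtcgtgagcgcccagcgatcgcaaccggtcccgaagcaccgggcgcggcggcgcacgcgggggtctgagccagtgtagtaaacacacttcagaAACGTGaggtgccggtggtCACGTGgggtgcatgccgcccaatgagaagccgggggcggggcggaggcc
Nr1d1: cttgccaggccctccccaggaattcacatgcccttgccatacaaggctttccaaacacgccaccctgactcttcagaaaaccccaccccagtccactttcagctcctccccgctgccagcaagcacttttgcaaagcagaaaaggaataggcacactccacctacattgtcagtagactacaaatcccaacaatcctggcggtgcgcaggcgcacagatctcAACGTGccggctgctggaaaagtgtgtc
Arntl: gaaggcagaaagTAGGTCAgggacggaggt
Windows of 300 bases (250 before the start and 50 after it) were searched on both strands, 13 of them from 9 of the clock genes. Per2 had no window in the table used and was not searched. The E-box CACGTG was found in windows of Per1, Cry1 and Bhlhe41 and in 7.15% of all 32851 windows. The variant CACGTT was found in windows of Cry1, Cry2 and Nr1d1 and in 4.68% of all windows. The D-box TTANGTAA was found in 1 of the 13 windows, that of Per3, and in 2.32% of all windows, starting 205 and 158 bases before the Per3 start. The ROR element core TAGGTCA was found in 1 of the Arntl windows, starting at base 30 after the start, and in 2.61% of all windows. The cAMP response element TGACGTCA was found in none of the 13 windows and in 1.79% of all. No searched motif contains another, although CACGTG and CACGTT share their leading 5 letters and TGACGTCA holds the ACGT found in both. A match describes the letters only.

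The tables give no counts, and the depth estimated from the spacing of low values was roughly 38.4 to 59.8 M fragments per library (M for mega). The correlation of log2 values between libraries lay between 0.932 and 0.961. Mss51 itself went against the labels, at 22.9, 37.0, 27.5 and 24.8 FPKM in the libraries labelled WT and 340, 201, 216 and 207 FPKM in those labelled KO. Every direction below is therefore one between labels. Of the 10 myofibre markers looked for, 9 were found and 8 tested, while Myh4 was listed at 0 in every library and Atp2a1 in all but KO replicate 2. None of the tested markers of any cell type in the 12 lists passed the limma threshold. In whole muscle, fewer cells of a type and less RNA per cell cannot be told apart. The labels do not say that the mice came from separate litters or days, so p-values measure only the spread between these mice, and they name no batch.

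Among the activators, Arntl, whose product is the DNA-binding partner of CLOCK, stood at 6.28, 3.55, 5.89 and 3.09 FPKM in WT replicates 1 to 4 and at 3.57, 4.34, 2.98 and 6.24 FPKM in KO replicates 1 to 4. WT replicates 1 and 3 and KO replicate 4 were high and the other 5 libraries low, so each labelled group held high and low libraries. The means were 4.70 ± 1.62 FPKM (SD, n = 4) for WT and 4.28 ± 1.42 FPKM (SD, n = 4) for KO, a difference of -0.11 in log2(FPKM + 0.5), with a standard error of 0.26. Clock, the other activator and a histone acetyltransferase, stood at 7.45, 4.33, 7.47 and 4.46 FPKM in WT and at 4.22, 4.53, 4.94 and 7.62 FPKM in KO. The same 3 libraries as for Arntl were high, and the remaining 5 lay between 4.22 and 4.94 FPKM. The log2 difference of Clock was -0.13 with a standard error of 0.23. Npas2, which can take the place of CLOCK, was under the level for testing, between 0.0172 and 0.583 FPKM, and its 3 highest libraries were again WT replicates 1 and 3 and KO replicate 4.

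**Figure D1:**
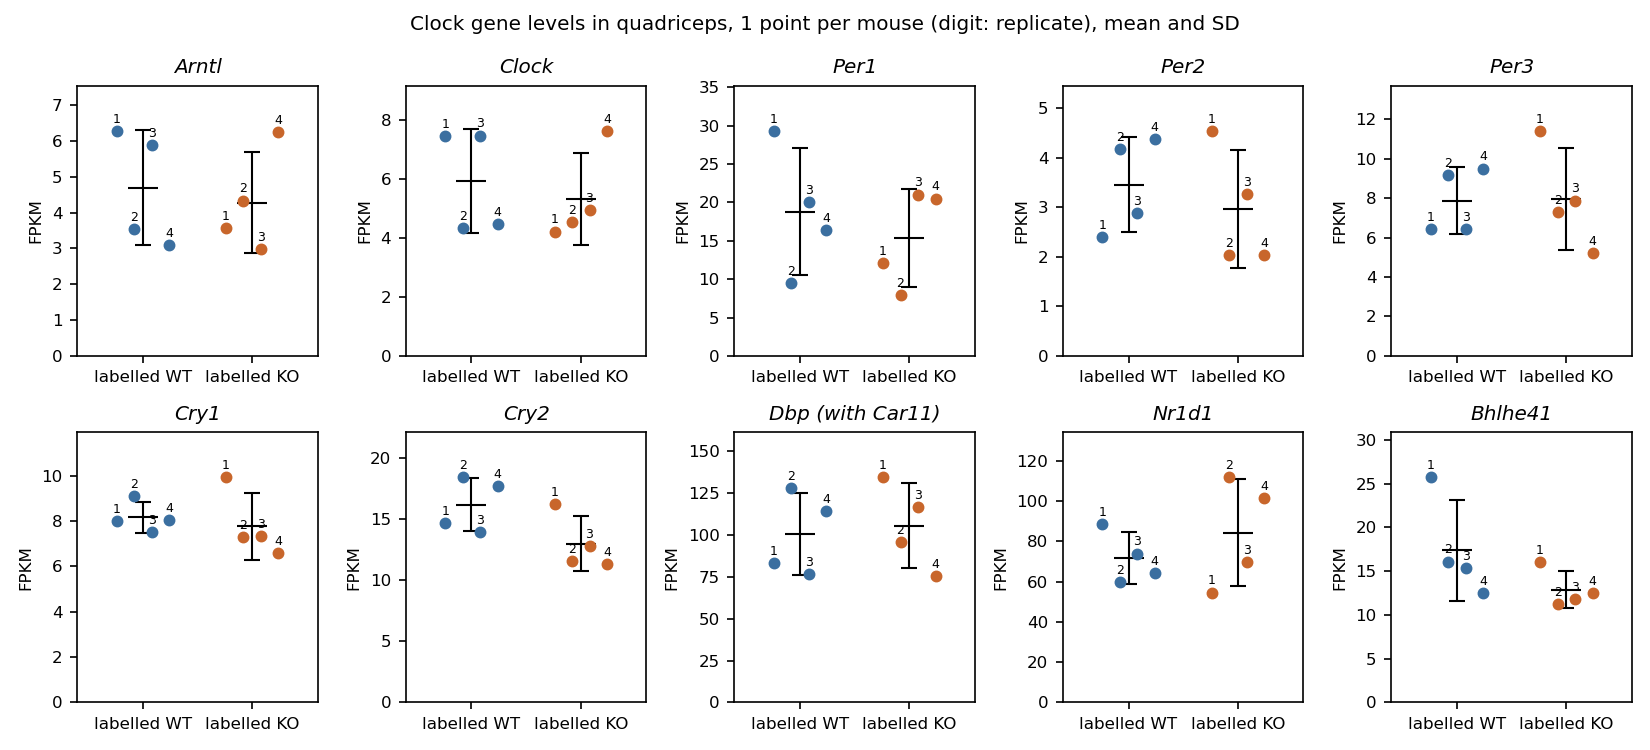
Deposited FPKM (vertical axes, linear from 0) of the 10 clock genes in libraries labelled WT (blue) and KO (orange). Each point is 1 mouse, the digit is its replicate number and the bars give mean and SD of 4; the groups overlap in every panel, and Arntl runs from 2.98 to 6.28 FPKM.

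The Per genes encode the repressors that enter the nucleus with the cryptochromes. Per2 stood at 2.40, 4.18, 2.88 and 4.38 FPKM in WT and at 4.54, 2.03, 3.26 and 2.04 FPKM in KO. The 4 libraries that were high were WT replicates 2 and 4 and KO replicates 1 and 3, which are the 4 lowest libraries of Arntl. Per3, a paralog with a weaker part in the core loop, stood at 6.44, 9.15, 6.42 and 9.495 FPKM in WT and at 11.4, 7.29, 7.88 and 5.22 FPKM in KO. Its 4 highest libraries were the same as those of Per2. The log2 differences, KO minus WT, were -0.22 for Per2 (standard error 0.26) and -0.02 for Per3 (standard error 0.22).

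Per1, the Per gene that also answers quickly to hormones and cell signals, did not follow its paralogs. It stood at 29.3, 9.48, 20.01 and 16.4 FPKM in WT and at 12.1, 7.91, 21 and 20.5 FPKM in KO. KO replicate 2 and WT replicate 2 were lowest and WT replicate 1 highest, a 3.70-fold range that was the widest of the 10 genes. The log2 difference of Per1 was -0.28 with a 95% interval of -1.15 to 0.60, which spans differences in both directions.

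The cryptochromes, which close the loop by blocking ARNTL and CLOCK, varied least. Cry1 stood at 7.995, 9.11, 7.50 and 8.04 FPKM in WT and at 9.92, 7.28, 7.33 and 6.58 FPKM in KO, with KO replicate 1 highest and KO replicate 4 lowest. Cry2 stood at 14.7, 18.4, 13.9 and 17.7 FPKM in WT and at 16.2, 11.6, 12.8 and 11.3 FPKM in KO. The 3 lowest libraries of Cry2 were all labelled KO, and KO replicate 1 lay within the WT range. Its means were 16.2 ± 2.201 FPKM (SD, n = 4) and 13.0 ± 2.26 FPKM (SD, n = 4), a log2 difference of -0.31 (95% interval -0.62 to -0.0059). It had the lowest p of the 10 in limma (unadjusted 0.0466), and it did not pass after Benjamini-Hochberg adjustment over all genes tested (limma adjusted p = 0.479; 0.161 to 0.9999 over the alternatives). The two-sided exact permutation p of Cry2 was 0.114.

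Among the outputs, Dbp encodes a factor that binds D-boxes and passes the rhythm on, and its RNA follows ARNTL and CLOCK closely. Its row stood at 83.1, 128, 76.7 and 114 FPKM in WT and at 134, 95.5, 117 and 75.5 FPKM in KO. WT replicates 2 and 4 and KO replicates 1 and 3 were high, as for Per2 and Per3. Nr1d1, the repressor of Arntl, stood at 88.7, 59.6, 74.0 and 64.3 FPKM in WT and at 54.6, 112, 69.8 and 101 FPKM in KO. Here the same 4 libraries were the lowest, and KO replicates 2 and 4 were the highest. The log2 differences were 0.07 for Dbp (standard error 0.21) and 0.19 for Nr1d1 (standard error 0.23). Bhlhe41 (DEC2), an E-box repressor, stood at 25.7, 16.1, 15.3 and 12.46 FPKM in WT and at 16.0, 11.3, 11.8 and 12.52 FPKM in KO, with WT replicate 1 well above the other 7 libraries. Its log2 difference was -0.38 with a standard error of 0.21.

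Between the labelled groups, 0 of the 10 clock genes passed limma at an adjusted p of 0.05, beside 6 of 11878 genes or 0.0505% of those tested. At an unadjusted p under 0.05 the count was 1 of 10, beside 10.3% of all genes tested. The FPKM of the groups overlapped for all 10, whereas they did not overlap for 5.5% of all genes tested. The limma adjusted p of the 10 ranged from 0.479 to 0.989, and the exact permutation p from 0.114 upward, with 0.0286 the smallest that 4 against 4 allows. The KO minus WT log2 difference was below 0 for 8 and above 0 for 2 of the genes, with a median of -0.12 beside 0.02 over all genes tested. On a scale with equal sums of named genes, the TPM scale, Dbp and Nr1d1 were also below 0. That scale moved the median of all genes to -0.175 and was set by single entries: Atg7 was listed at 921731 of a named sum of 1678971 FPKM in KO replicate 4 and at 0 elsewhere, and Gm22953 at 469610 of 1123846 in WT replicate 3 and at 0 elsewhere.

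**Figure D2:**
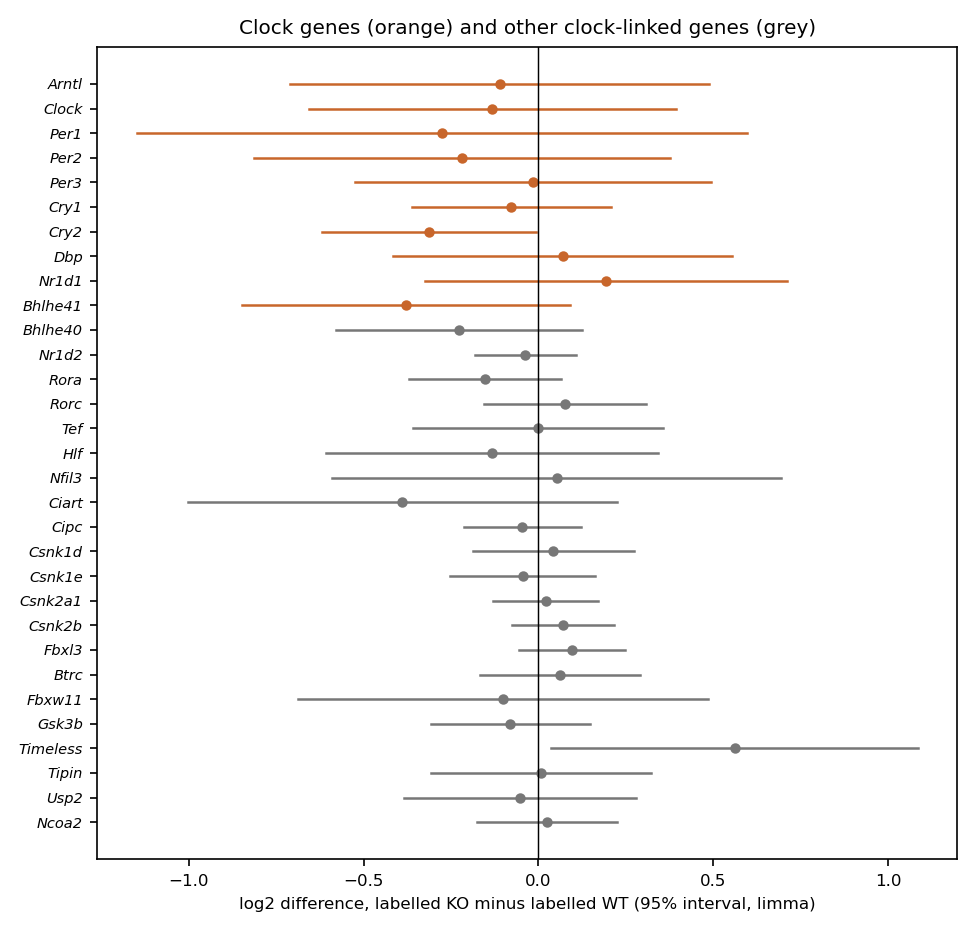
Difference in log2(FPKM + 0.5) between libraries labelled KO and WT (horizontal axis) for the 10 clock genes (orange) and 21 further clock genes (grey), with 95% intervals from limma. The interval of Cry2 ends just below 0 at -0.0059 and those of the other 9 clock genes include 0.

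The spread inside the labelled groups was wide for these genes. The SD of log2 values within groups lay above the 85th percentile of all genes tested for 8 of the 10, the exceptions being Cry1 (percentile 53.8) and Cry2 (61.8). Per1 was at percentile 96.3, Arntl at 91.5 and Per2 at 91.0. The highest library exceeded the lowest by 1.51-fold to 3.70-fold over the 10 genes. The profile plot shows where this spread came from, library by library.

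**Figure D3:**
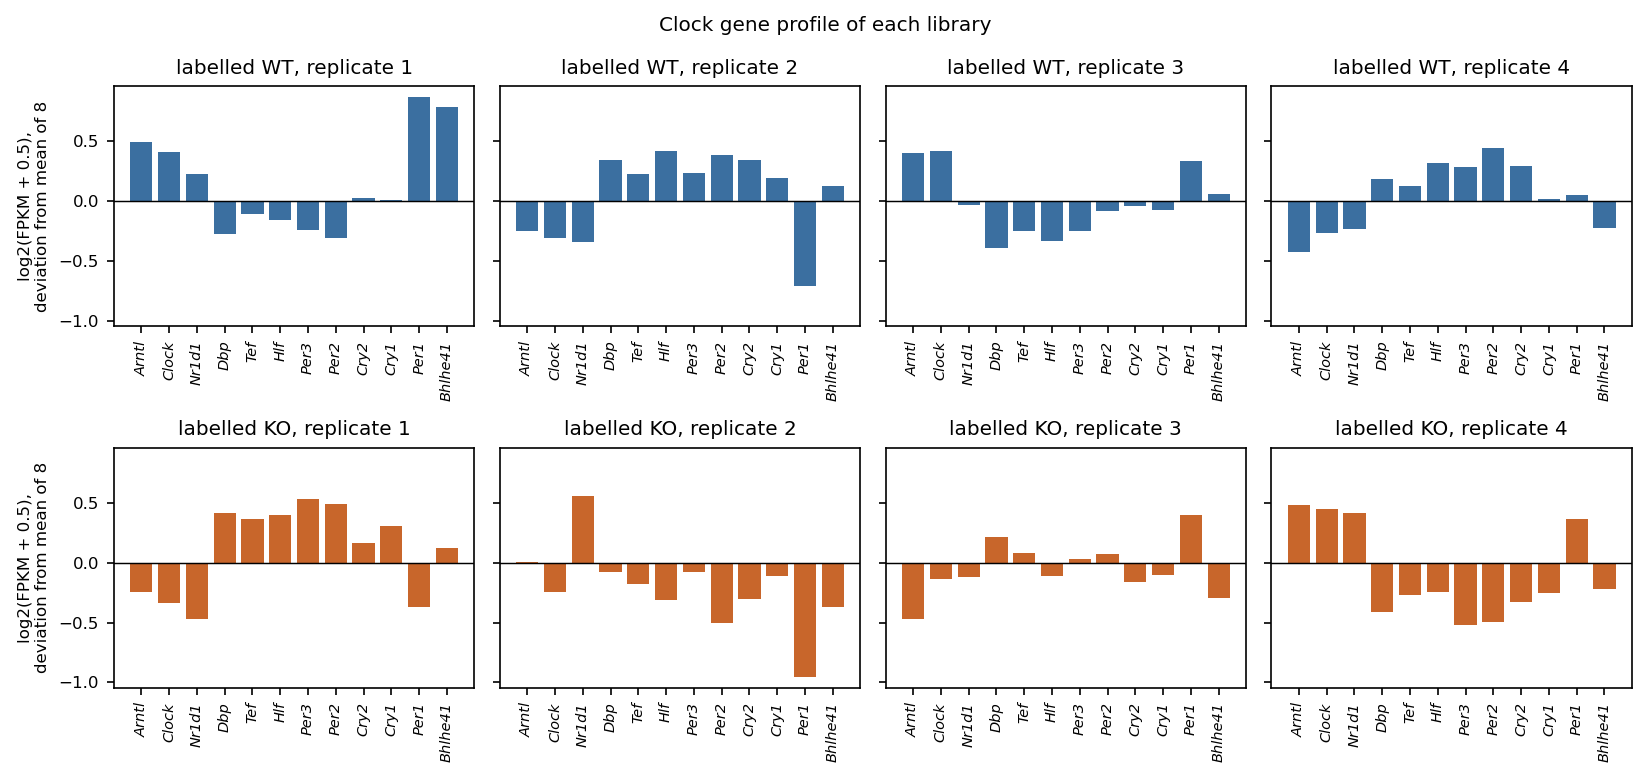
Deviation of each gene's log2(FPKM + 0.5) from its mean over the 8 libraries (vertical axis), 1 panel per library. In WT replicates 2 and 4 and KO replicate 1, Arntl, Clock and Nr1d1 are below the mean and Dbp, Tef, Hlf, Per3 and Per2 above it; WT replicates 1 and 3 and KO replicate 4 show Arntl and Clock above and Dbp below, and KO replicates 2 and 3 match neither picture in every gene.

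The 4 libraries with the least Arntl (WT replicates 2 and 4, KO replicates 1 and 3) were the 4 highest for Dbp, Per2 and Per3 and the 4 lowest for Nr1d1. Of the other 9 clock genes, these 4 shared the division, beside 10.2% of the other genes tested. Clock, Per1, Cry1, Cry2 and Bhlhe41 divided the libraries otherwise. A division at 4 libraries was not a planned comparison. Among Arntl, Dbp, Per2, Per3 and Nr1d1, only Dbp had its widest gap there. For Arntl, Per2 and Nr1d1 the widest gap had 5 libraries below it and 3 above, and for Per3 1 below and 7 above. The division placed 2 libraries of each label on each side. Ratios of 1 gene to another within a library, which no scaling of libraries alters, are given next to show its size; they restate the same values and are no further support for it.

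The ratio of Dbp to Arntl FPKM was 13.2, 36.0, 13.0 and 37.0 in WT replicates 1 to 4 and 37.6, 22, 39.1 and 12.1 in KO replicates 1 to 4. Thus 4 libraries lay between 36.0 and 39.1, 3 between 12.1 and 13.2, and KO replicate 2 in between. The log2 of the ratio of Arntl to Dbp averaged -4.45 ± 0.85 (SD, n = 4) in WT and -4.64 ± 0.79 (SD, n = 4) in KO, so the labels differed by -0.19, which is less than either SD. The ratio of Per3 to Arntl was 1.03, 2.58, 1.09 and 3.08 in WT and 3.19, 1.68, 2.64 and 0.836 in KO, with the same 4 libraries high. The ratio of Nr1d1 to Dbp was 1.07, 0.467, 0.965 and 0.562 in WT and 0.407, 1.17, 0.599 and 1.34 in KO, with those 4 libraries low. The time of dissection is not among the labels, so its part in these ratios was not tested.

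**Figure D4:**
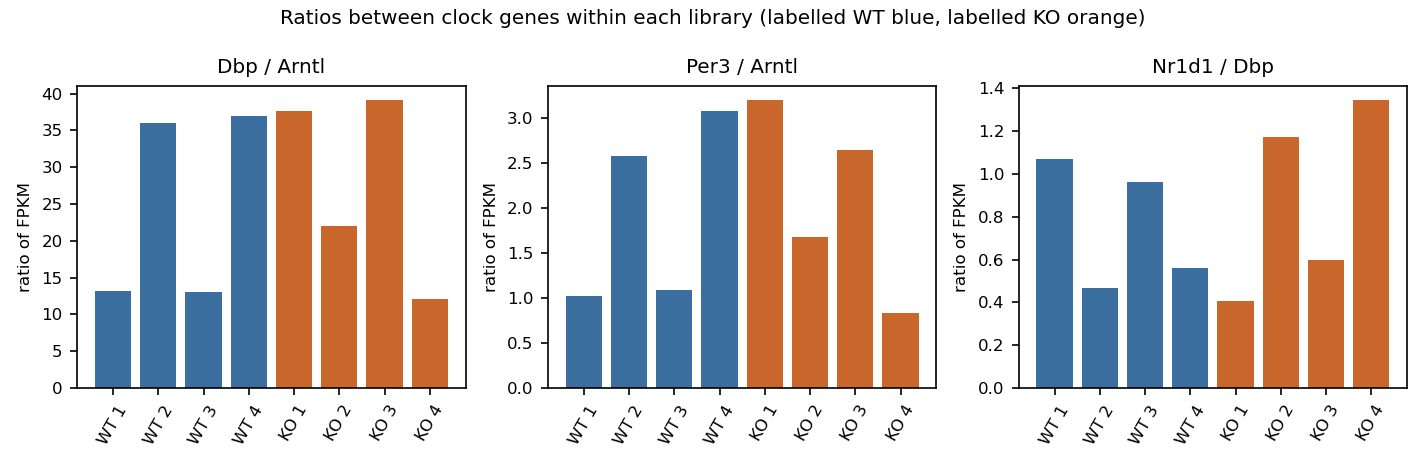
Ratio of FPKM within each library (vertical axes, from 0) for Dbp to Arntl, Per3 to Arntl and Nr1d1 to Dbp, labelled WT in blue and labelled KO in orange, 1 bar per mouse with no error. Dbp to Arntl is between 36.0 and 39.1 in 4 libraries, 2 of each label, and at 22 or below in the other 4.

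Over the 8 libraries, log2 values of 8 of the other clock genes were set against Arntl by exact permutation over the 40320 pairings (two-sided), adjusted over 9 relations with that of Clock included. For Clock no pooled correlation is given, because its libraries fell into 5 low and 3 high, with a gap of 69.7% of the range between them. Bhlhe41 had a gap of 57.0%, with a single library above it (WT replicate 1), and its r is given. The widest gap between libraries of Arntl itself was 41.8% of its range, between KO replicate 2 and the 3 high libraries. On the FPKM as deposited, Dbp had Pearson r = -0.906 (exact permutation p = 0.00697, adjusted p = 0.0548). Its Spearman rho was -0.714 (exact permutation p = 0.0576, adjusted p = 0.238). Scaled by median ratios r was -0.875, and with quantile normalization -0.837. On the TPM scale, which single entries set as given above, r was 0.257. Without WT replicate 1 and KO replicate 4, the libraries farthest from the median of Arntl, r as deposited was -0.847 over 6 libraries. With each labelled group centred on its own mean it was -0.905. Of the genes tested other than Arntl, 1.25% had an absolute r at least as large, and 0.32% had an r at or below that of Dbp.

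Per3 had r = -0.815 (exact permutation p = 0.0183, adjusted p = 0.0548) and rho = -0.714, with r = -0.659 over 6 libraries, and 5.92% of the other genes tested had an absolute r at least as large. Per2 had r = -0.735 (exact permutation p = 0.0550, adjusted p = 0.124) and rho = -0.619. On the TPM scale the r of Per3 and Per2 also turned positive, to 0.288 and 0.147. By median ratios they were -0.795 and -0.713, and with quantile normalization -0.766 and -0.669. Nr1d1 had r = 0.627 (exact permutation p = 0.102, adjusted p = 0.183) and rho = 0.595. For Per1, Cry1, Cry2 and Bhlhe41 r lay between -0.463 and 0.447, and that of Per1 was -0.0156 over 6 libraries. None of the 8 passed the adjusted threshold, and Dbp and Per3 had an unadjusted exact permutation p under 0.05. Clock, for which no pooled r is given, is in neither count. How many of all genes tested had such a p against Arntl was not determined, so the count of Dbp and Per3 has no share beside it. Without KO replicate 3, Dbp (r = -0.918) and Per3 (r = -0.902) passed at an exact permutation adjusted p of 0.0429. No share of other genes was determined there either. Over all alternatives the exact permutation adjusted p ran from 0.0429 to 0.581 for each.

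**Figure D5:**
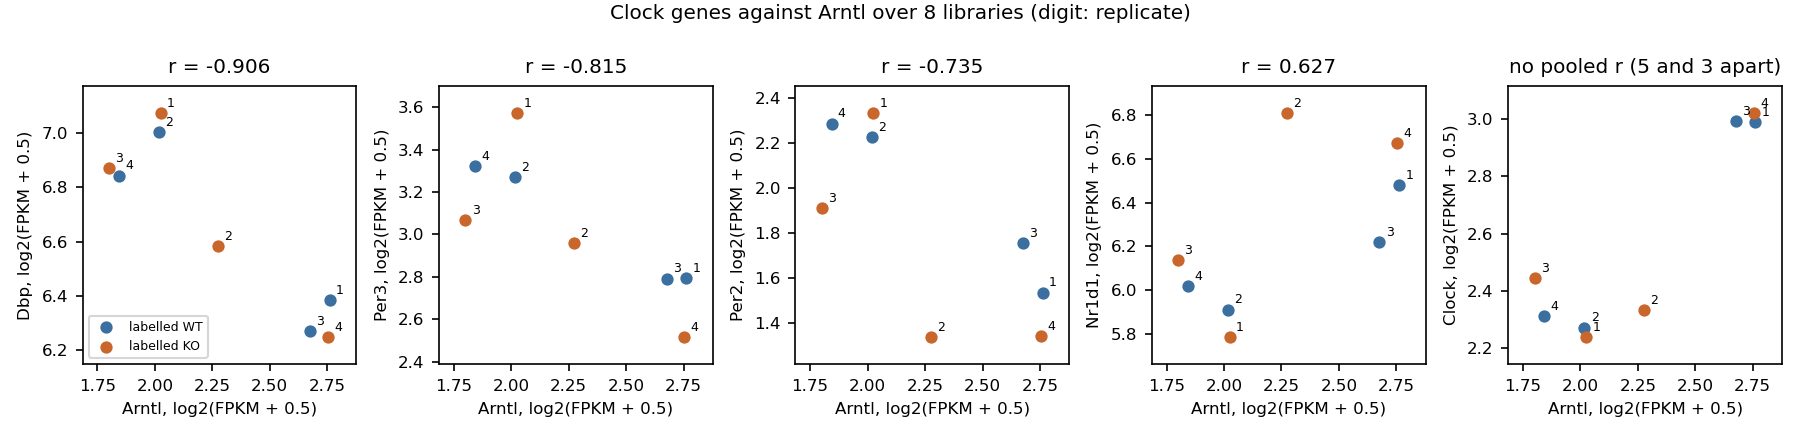
log2(FPKM + 0.5) of Dbp, Per3, Per2, Nr1d1 and Clock (vertical axes) against that of Arntl (horizontal axes), 1 point per mouse with its replicate number, labelled WT in blue and labelled KO in orange. Libraries of both labels lie at each end. Dbp is lower where Arntl is higher (r = -0.906 as deposited, -0.875 scaled by median ratios, 0.257 on the TPM scale). Clock separates 3 libraries from 5.

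Other measures were set beside this division. The summed FPKM of the myofibre markers was 53310, 69940, 52390 and 63360 in WT and 69060, 56370, 59050 and 48900 in KO, so its 4 highest libraries were the 4 highest of Dbp. Atp2a1 added to that sum in KO replicate 2 alone. The sum of no other cell type list had those 4 libraries highest, and 10.2% of single genes tested shared the division. Across 11451 genes with a known transcript length, the r with Arntl rose with length (Spearman rho = 0.337 across genes, which are not independent). The longest transcript of the row shared by Dbp and Car11, of either name, is 1837 bases. That of Arntl is 3995, and those of Per2 and Per3 are 5833 and 5999. With the trend of length removed from each library, r of Dbp was -0.848 and that of Per3 -0.82. The part of fibre RNA and of transcript length in the division was not tested further.

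The 5 genes whose log2 values were most like those of Arntl over the 8 libraries were Pafah1b2 (a phospholipase subunit, r = 0.988), Kdelr2 (a retrieval receptor of the endoplasmic reticulum, 0.981), Cbx5 (heterochromatin protein HP1 alpha, 0.972), Lbr (lamin B receptor, 0.971) and Spcs3 (a signal peptidase subunit, 0.971). The 5 most opposed were Cct7 (a chaperonin subunit, r = -0.978), Srp68 (of the signal recognition particle, -0.968), Psmd4 (a proteasome subunit, -0.966), Fam213a (-0.958) and Smarca2 (a chromatin remodelling ATPase, -0.956). Several ranged little: Cbx5 ran from 8.68 to 9.83 FPKM and Cct7 from 54.9 to 63.0 FPKM, against 2.98 to 6.28 FPKM for Arntl. These were picked as extremes from all genes and have no p.

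The remaining genes of the clock were read from a list of 26, of which 21 could be tested. Noct was looked up by a synonym and read from the row named Ccr4, which was under the level for testing. Noct itself may therefore not have been read. None passed limma, with 10 above and 11 below 0 and a median log2 difference of -0.00093. Tef, a relative of Dbp that binds the same D-box, stood at 95.5, 120.5, 86.4 and 112.7 FPKM in WT and at 132.9, 90.7, 108.9 and 85.1 FPKM in KO. Hlf, the third of these PAR-domain factors, stood at 6.62, 10.1, 5.80 and 9.39 FPKM in WT and at 9.95, 5.87, 6.84 and 6.18 FPKM in KO. For both, the 4 highest libraries were the 4 highest of Dbp. Nr1d2, the paralog of Nr1d1, stayed between 56.7 and 65.3 FPKM in all 8 libraries and showed no such division. The genes of lowest p in this list were Timeless (log2 difference 0.56, limma adjusted p = 0.453), Rora (-0.15) and Bhlhe40 (-0.23).

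Among 21 output genes of the clock known from muscle and other tissues, 20 were tested and 0 passed limma, with 0 at an unadjusted p under 0.05 and a median log2 difference of 0.00069. The lowest p belonged to Tcap, which encodes the titin cap and is a target of the clock in muscle (log2 difference 0.31, limma adjusted p = 0.540), then Alas1 and Slc2a4. Lists of other signals that reach the clock genes gave 0 genes past limma as well. The 17 glucocorticoid targets had a median log2 difference of -0.14, and those of lowest p were Trim63 (-0.25), Pik3r1 (-0.20) and Mt2 (-0.57). The 16 tested genes of fasting and feeding had a median of 0.07, with Trim63, Scd1 (-0.71) and Srebf1 (-0.27) lowest in p. The 10 temperature-responsive rows had a median of 0.07, with Cirbp, a cold-inducible RNA-binding protein gene (0.28), Dnajb1 (-0.30) and Hsph1 (0.21) lowest in p. Of 14 early response genes tested, 13 were below 0 and 4 had an unadjusted limma p under 0.05, beside 10.3% of all genes tested, with a median log2 difference of -0.40. Fos, the lowest, had a log2 difference of -1.08 (limma adjusted p = 0.336), and its 4 WT libraries (5.40 to 13.6 FPKM) lay above the 4 KO libraries (3.93 to 5.28 FPKM). Groups did not overlap for 5.5% of all genes tested. Atf3 (-0.69) and Ier2 (-0.49) came next in p. Per1 can answer the same signals, and its log2 difference of -0.28 had the wide interval given above.

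Several clock genes share bases with a neighbour, and the strand setting is not stated in the sources used here, so reads of the partners cannot be told apart. By GENCODE M21, exons of Nr1d1 (chr11:98767932-98775333) overlap those of Thra on the opposite strand over 263 bases. Thra stood between 27.1 and 34.1 FPKM, a 1.26-fold range, beside 2.05-fold for Nr1d1. Exons of Dbp (chr7:45705088-45710203) overlap Sphk2 over 539 bases, and Sphk2 ran from 14.5 to 22.4 FPKM with KO replicate 1 highest and KO replicate 4 lowest, as for Dbp. The 4 highest libraries of Sphk2 were also the 4 highest of Dbp, and the part of shared reads in this was not tested. Cry2 overlaps D930015M05Rik over 295 bases, Bhlhe41 overlaps Gm43909 over 1280, and Arntl (chr7:113207465-113314126) overlaps Gm45355 over 33. The files place Per3 (chr4:151003652-151044665) in a merged locus with Camta1 and Vamp3, whose values varied 1.54-fold and 1.18-fold. No exon overlap was found for Clock, Per1, Per2, Per3 and Cry1.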

How the data were processed

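Quadriceps RNA of 8 mice was sequenced as paired 150-base reads with 50 M (mega) read pairs stated per library, 1 library per mouse. The authors deposited FPKM per gene, per the file headers. Per the submitters' processing notes, which give no roles, the tools were Cufflinks 2.2.1, TopHat2 2.1.1, Bowtie2 2.2.6 and FastQC, on build mm10; annotation, filters and strand setting are not given in the sources used here. Of 46036 entries, 2379 without a name (65.8% to 93.2% of summed FPKM) were left out. Genes averaging 1 FPKM or more were tested as log2(FPKM + 0.5), without scaling, which understates changes of low genes, using limma 3.58.1 in R 4.3.3 (genotype alone, mean trend, two-sided, Benjamini-Hochberg over 11878 genes, threshold 0.05). Groups follow the genotype labels. Single values had exact permutation tests over 70 assignments, and correlations exact pairings (scipy 1.17.1). Without counts, no counting interval is given. Named were the 10 clock genes, Mss51, the 3 genes of smallest p in each companion list and the 5 genes of highest and of lowest r with Arntl, leaving out predicted genes and pseudogenes. Other genes (Tef, Hlf, Nr1d2, Npas2, myofibre markers at 0, the exon neighbours, the entries that dominate sums and the glucocorticoid targets set against Per1) were named after their values were seen. So was Slc25a25. Chosen then too was the rule that gives no pooled r where a gap exceeds 50% of a gene's range with at least 2 libraries on each side. Members and lists were chosen with earlier results of these data known. The scripts were tested on simulated data. Alternatives were pseudocounts, filters, scalings, robust variances, a block of replicate numbers, and leaving out single libraries. Scaling by median ratios and removal of the trend with length (lowess, span 0.3) were added after seeing the data.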

Additional observations from a re-analysis of the deposited data

Results flagged for a closer look

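In 6 of 76 groups of 4 libraries looked at, over 38 genes, 1 library stood apart from the other 3 by a share of the group's range above Dixon's 95% critical value, where chance flags about 1 in 20 groups. None of the 6 was among the 10 clock genes. Mss51 was at 340 FPKM in KO replicate 1, against 201 to 216 in the other KO libraries. Timeless, a partner of the replication fork with a disputed part in the mammalian clock, was at 5.24 FPKM in KO replicate 2, against 2.2 to 2.52. Tcap was at 3950 FPKM in KO replicate 3, against 3230 to 3350. Slc2a4, the insulin-responsive glucose transporter, was at 458 FPKM in WT replicate 1, against 373 to 384. Trim63, an atrophy-linked ubiquitin ligase, was at 139 FPKM in KO replicate 4, against 113 to 115. Pik3r1, a regulatory subunit of PI3-kinase, was at 15.3 FPKM in WT replicate 3, against 12.0 to 12.1.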

How the results depend on the processing

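No clock gene passed limma under any of the 18 other settings, where their lowest adjusted p was 0.161, without KO replicate 1; with a mean of at least 5 FPKM, 8 of the 10 were tested. The 6 genes called overall became 120 on the TPM scale (63 higher, 57 lower), 0 with the replicate block and 4 to 125 with 1 library left out, the 125 without KO replicate 1. Deviations of same-numbered libraries correlated between -0.0809 and 0.00933, and those of differently numbered ones between -0.156 and 0.133. The labels do not say whether mice of the same number were handled together, and these values cannot decide it. The sign of KO minus WT turned on the TPM scale for Dbp (-0.14) and Nr1d1 (-0.019), and with the length trend removed for Per3 (0.017) and Dbp (-0.0022). With 1 library left out it ran from -0.29 to 0.035 for Arntl, -0.20 to 0.16 for Per3 and -0.057 to 0.22 for Dbp. Without a turn of sign it ran from -0.56 to -0.0053 for Per1, -0.30 to -0.015 for Clock, -0.42 to -0.088 for Per2, -0.19 to -0.0080 for Cry1, -0.42 to -0.25 for Cry2, 0.041 to 0.38 for Nr1d1 and -0.52 to -0.18 for Bhlhe41. On the TPM scale r with Arntl became 0.147 for Per2, 0.288 for Per3, 0.483 for Cry1, 0.436 for Cry2 and 0.257 for Dbp; that scale is set by single entries in KO replicate 4 and WT replicate 3. Without the 2 libraries farthest from the median of Arntl, r of Per1 was -0.0156. With 1 library left out, r ran from -0.936 to -0.877 for Dbp, -0.902 to -0.751 for Per3, -0.841 to -0.655 for Per2, 0.522 to 0.79 for Nr1d1, 0.237 to 0.664 for Per1, -0.643 to -0.243 for Cry1, -0.681 to -0.286 for Cry2 and 0.0682 to 0.656 for Bhlhe41. Without KO replicate 3, Dbp (-0.918) and Per3 (-0.902) passed. The causes were not tested. Depth is known only roughly, and its part in the low FPKM of Per2 and Arntl was not tested.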

Other observations

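Per1, which did not divide the libraries as Per2 and Per3 did, ran along with several glucocorticoid targets. This comparison was chosen after the values of Per1 were seen, and the other lists were not set against Per1. Slc25a25, of the fasting and feeding list, put the 8 libraries in the same order as Per1. Tsc22d3 is also in the list of clock output genes, and Klf15 in that of fasting and feeding. Running along with Per1 is therefore not particular to glucocorticoid targets. Of 17 such genes, 7 passed an exact permutation test of Pearson r with Per1 over the 8 libraries after adjustment over the 17, and 4 passed by Spearman rho (Cebpb, Klf15, Klf9 and Sgk1). Of the 11877 other genes tested, 2.77% had an exact permutation p of r, in either direction, no larger than the largest that passed here (0.0163), and 1.39% one of rho (0.0107). Tsc22d3 (GILZ), a glucocorticoid-induced leucine zipper gene, had r = 0.891 (exact permutation p = 0.00203, adjusted p = 0.0240) and rho = 0.81, and stood at 300.0, 220.0, 327.1 and 249.9 FPKM in WT and 205.2, 143.1, 309.7 and 274.0 FPKM in KO. It was lowest in KO replicate 2, as Per1 was. Sgk1, a kinase induced by corticosteroids, had r = 0.853 (exact permutation adjusted p = 0.0247) and rho = 0.905. Errfi1 (0.896), Klf15 (0.88), Cebpb (0.845), Ddit4 (0.825) and Klf9 (0.821) were the others that passed by r. Without KO replicate 2 and WT replicate 2, the libraries farthest from the median of Per1, r was 0.812 for Tsc22d3, 0.839 for Klf15 and 0.802 for Sgk1. Fkbp5, another such target, had r = 0.464 (exact permutation adjusted p = 0.276) and -0.33 without those libraries. Zbtb16 had r = -0.544. Of all genes tested, 0.387% had an r with Per1 at or above that of Tsc22d3. No hormone was measured, so its part in these values was not tested.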
